A study of Mus musculus with 24 samples.

Results

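The genes described here are 10 genes of the blood-brain barrier, Cldn5, Ocln, Tjp1, Cdh5, Pecam1, Esam, Slco1a4, Abcb1a, Mfsd2a and Ly6c1, taken by symbol from the 14769 gene symbols of the study. All 10 were found in each of its 4 expression tables. Cortex RNA was sequenced from 12 male mice aged 3 to 4 months, 6 wild type (WT) and 6 lacking the circular RNA ciRS-7 (KO), also named Cdr1as. Every animal had undergone tMCAo, a stroke model in which a filament blocks the middle cerebral artery, with 1 h of occlusion and 1 day of reperfusion. Each animal gave a CL and a PI library, marks that the labels do not spell out and that are used as given, so that the 24 libraries make up 4 groups (CL and PI of WT, CL and PI of KO) with 6 in each. The strain label C57BL/6N-Cdr1asem1Nikr is on WT and KO animals alike. No group went without the occlusion, so a CL library is not cortex of an untouched animal. The labels do not restrict the deletion to a cell type. The stated purpose was to compare gene expression of WT and KO animals after ischemia.

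The blood-brain barrier is formed by the endothelial cells of brain capillaries, which are sealed to each other by tight junctions and adherens junctions. These cells carry few transport vesicles, and move nutrients, drugs and waste products through dedicated transporters and efflux pumps. The barrier is known to open after stroke, and Wnt signals from surrounding brain cells are known to maintain its transporters and junctions. Of the genes here, Cldn5 encodes the main claudin of these tight junctions, Ocln encodes occludin and Tjp1 the scaffold protein ZO-1, which many other cells of the brain also make. Cdh5 encodes VE-cadherin of adherens junctions, and Pecam1 and Esam encode adhesion molecules at endothelial contacts. Slco1a4 encodes an organic anion transporter and Abcb1a the drug efflux pump P-glycoprotein. Mfsd2a encodes a lipid transporter that restrains vesicle transport, and Ly6c1 encodes a surface protein of brain capillaries that some blood leukocytes also carry.

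Values were log2 CPM, the logarithm of a gene's reads scaled to a common library total. Read depth recovered from the values was 5.27 to 10.5 megareads (M reads) per library, with a median of 6.94 M. It is a scaled library size that differs slightly between the 2 tables a library is in, as for PI KO replicate 6 with 5.40 and 5.27 M. In every gene the deposited values had been Winsorized: the 2 lowest of each 6 are tied at one value and the 2 highest at another, so the lowest and highest printed here are not the extremes of the animals. Whether groups overlap was read from these deposited values, for members and all genes alike, and the true extremes may overlap where the deposited values do not. For the same reason the direction within single animals is not known for tied values, and no count of animals is given for a gene. Group levels are therefore trimmed means of the 4 inner values, and the test is a moderated trimmed-mean test with limma's variance moderation and Benjamini-Hochberg adjustment over all genes of a table. A gene was called, and is said to have risen or fallen, at an adjusted p under 0.05. Cdr1as itself stood at 2740.9 CPM in PI WT and 3634.3 CPM in CL WT and at no more than 0.166 CPM in the KO groups, at least 4814-fold and 8094-fold lower when the KO is set to the limit of 3 reads per library. One library stood apart: CL KO replicate 6 was among the middle 2 of its group in 10.5% of genes, against 19.3% to 47.0% for the other 23 libraries.

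The members are protein-coding genes of very different abundance (GENCODE M21, GRCm38, the build mm10 that the submitters' processing notes name). Per kilobase of exon, in CL WT, Tjp1 was at 12.9 CPM, Slco1a4 at 8.19, Ly6c1 at 7.27, Mfsd2a at 5.15 and Abcb1a at 4.50. Cldn5 (1.94), Pecam1 (1.71), Ocln (1.57), Cdh5 (1.35) and Esam (1.26 CPM per kilobase) formed a lower set. Depth limits this lower set most: Cldn5 had 14.2 to 43.9 reads per library, where counting error alone is 0.32 on the log2 scale at the lowest group median, and Tjp1 had 500 to 1106 reads and a counting error of 0.056. Some members share sequence with other genes. Of 75-base windows of the Ly6c1 transcripts, 19.0% also occur in Ly6c2 or Ly6a, and of Abcb1a windows 12.5% occur in Abcb1b or Abcb4. How the authors' counting treated such reads is not given in the sources used here. Exons of Abcb1a also overlap Gm42686 on the opposite strand over 553 bases (10.1%).

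The junction genes are described first, beginning with the tight junction. Cldn5 (chr16:18776847-18778262, plus strand) ranged in CL WT from 1.28 through a median of 1.38 to 1.70 log2 CPM, and in PI WT from 1.84 through 1.96 to 2.15. All deposited PI WT values lay above all CL WT values. The difference, PI minus CL, was 0.53 ± 0.21 on the log2 scale (SE, n = 6 and 6), 44.0% more, and missed the threshold at an adjusted p of 0.147 in the trimmed-mean test. In KO animals Cldn5 was at 1.41, 1.63 and 2.11 in CL KO and 1.45, 1.79 and 2.01 in PI KO (lowest, median and highest log2 CPM). Here the groups overlapped almost completely, with a difference of 0.03 ± 0.28 in KO.

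Occludin and ZO-1 were not called, and the data bound ZO-1 more tightly. Ocln (chr13:100496507-100552718, minus strand) had lowest, median and highest values of 2.63, 2.65 and 2.91 log2 CPM in CL WT and 2.17, 2.66 and 3.06 in PI WT, the wider group enclosing the other. The log2 difference was -0.10 ± 0.25 in WT animals (adjusted p = 0.869, trimmed-mean test) and -0.21 ± 0.18 in KO animals (adjusted p = 0.530). Tjp1 (chr7:65296165-65527781, minus strand) was at 6.59, 6.67 and 6.70 log2 CPM in CL WT and 6.61, 6.71 and 6.76 in PI WT. Its log2 differences of 0.04 ± 0.07 in WT and -0.06 ± 0.07 in KO have 95% intervals of -0.11 to 0.19 and -0.21 to 0.10, the narrowest among the 10 genes.

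VE-cadherin had the largest difference of the junction genes. Cdh5 (chr8:104101625-104144511, plus strand) was at 2.26, 2.46 and 2.79 log2 CPM in CL WT and at 2.91, 3.38 and 3.58 in PI WT, without overlap. The log2 difference was 0.79 ± 0.24, 72.5% more, at an adjusted p of 0.0542 in the trimmed-mean test, just outside the threshold. Restricting the table to genes of at least 1 log2 CPM gave an adjusted p of 0.0490 for it. In KO animals Cdh5 was at 2.35, 2.80 and 2.96 in CL KO and 3.04, 3.32 and 3.40 in PI KO, again without overlap, a difference of 0.55 ± 0.21 (adjusted p = 0.124, trimmed-mean test).

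The adhesion molecules of endothelial contacts had similar differences. Pecam1 (chr11:106654217-106750628, minus strand) was at 3.08, 3.36 and 3.80 log2 CPM in CL WT and 3.29, 3.91 and 4.24 in PI WT, which overlap, with a difference of 0.40 ± 0.31. In KO animals it was at 3.12, 3.27 and 3.36 in CL KO and at 3.48, 3.75 and 3.96 in PI KO, which do not overlap, with a difference of 0.48 ± 0.16 (adjusted p = 0.0818, trimmed-mean test). Esam (chr9:37528078-37538319, plus strand) was at 1.69, 1.86 and 2.02 log2 CPM in CL WT and 2.10, 2.40 and 2.60 in PI WT. In CL KO it was at 1.42, 1.57 and 1.65 and in PI KO at 1.74, 2.06 and 2.42. Neither pair overlapped, and the difference was 0.51 ± 0.20 in WT animals (adjusted p = 0.139, trimmed-mean test) and 0.53 ± 0.25 in KO animals (adjusted p = 0.212).

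The transport and surface genes are Slco1a4, Abcb1a, Mfsd2a and Ly6c1. The start regions of the 3 transporters are shown because their levels in PI were the lower ones in both genotypes, 2 of them called in KO. They are RefSeq windows on GRCm38.p6, from 250 bases before to 50 bases after the annotated start, read 5′ to 3′ on the gene's strand.
Slco1a4, chr6:141856171-141856470, minus strand: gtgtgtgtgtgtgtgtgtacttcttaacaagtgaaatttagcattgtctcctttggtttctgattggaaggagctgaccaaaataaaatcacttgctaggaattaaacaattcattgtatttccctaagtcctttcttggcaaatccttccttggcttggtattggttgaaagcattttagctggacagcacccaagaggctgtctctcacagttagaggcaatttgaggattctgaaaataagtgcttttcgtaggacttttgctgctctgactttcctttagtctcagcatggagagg
Abcb1a, chr5:8566841-8567140, plus strand: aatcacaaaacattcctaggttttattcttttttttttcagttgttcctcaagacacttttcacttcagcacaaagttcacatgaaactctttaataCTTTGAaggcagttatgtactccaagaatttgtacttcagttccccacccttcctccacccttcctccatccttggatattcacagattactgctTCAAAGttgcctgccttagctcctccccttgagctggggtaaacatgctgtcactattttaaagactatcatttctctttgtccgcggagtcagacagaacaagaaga
Mfsd2a, chr4:122961139-122961438, minus strand: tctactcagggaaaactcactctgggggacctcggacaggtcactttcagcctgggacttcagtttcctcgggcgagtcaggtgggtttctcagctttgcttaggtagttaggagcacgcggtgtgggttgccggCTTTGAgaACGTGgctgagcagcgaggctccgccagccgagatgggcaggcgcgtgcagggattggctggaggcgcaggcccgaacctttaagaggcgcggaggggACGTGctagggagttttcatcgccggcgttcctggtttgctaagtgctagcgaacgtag
Capitals mark CTTTGA, the core bound by the TCF/LEF factors of Wnt signalling, on either strand (TCAAAG on the reverse), and ACGTG, the core of the hypoxia response element. The Mfsd2a window holds CTTTGA 115 bases before the start and ACGTG 107 and 9 bases before it. The Abcb1a window holds CTTTGA at 153 bases and its reverse at 58 bases before the start, which in RefSeq lies 92986 bases from the GENCODE start. The Slco1a4 window holds neither, nor CGGAAG (ETS) or TTCNNNGAA (STAT), both strands searched and overlaps allowed. CTTTGA is found in 16.0% and ACGTG in 19.6% of all 32851 windows of this length, so these matches are common. Of the 10 genes, 7 had a window. Among them Tjp1, which was not called, held ACGTG 42 bases after and CGGAAG 99 bases before its start, both on the reverse strand. CTTTGA was found in 2 of the 7 (Abcb1a and Mfsd2a), ACGTG in 2 (Mfsd2a and Tjp1), CGGAAG in 1 and TTCNNNGAA in 0. CGGAAG is found in 16.9% of all windows. A link between these matches and the levels was not tested.

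Slco1a4 (gene at chr6:141805440-141856199, minus strand) was the member with the clearest difference. In CL KO it was at 5.59, 5.66 and 5.72 log2 CPM and in PI KO at 5.10, 5.19 and 5.25, 2 narrow groups far from each other. It fell by 28.2% in PI KO, a log2 difference of -0.48 ± 0.08 (SE, n = 6 and 6) at an adjusted p of 0.00234 in the trimmed-mean test. In WT animals it was at 5.49, 5.74 and 5.92 in CL WT and 5.05, 5.16 and 5.51 in PI WT, groups that touch at their edges. The WT difference was of the same size, -0.48 ± 0.17, but with the wider spread it was not called (adjusted p = 0.0937).

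Abcb1a (gene at chr5:8660077-8748575, plus strand) was at 4.55, 4.69 and 4.83 log2 CPM in CL KO and 4.24, 4.31 and 4.41 in PI KO, with no overlap. It fell by 22.8% in PI KO, a log2 difference of -0.37 ± 0.11 at an adjusted p of 0.0464 in the trimmed-mean test. This call is close to the threshold: without a trend in the prior variance the adjusted p was 0.0954. In WT animals Abcb1a was at 4.44, 4.60 and 4.84 in CL WT and 3.95, 4.32 and 4.58 in PI WT, which overlap, with a log2 difference of -0.34 ± 0.20 (adjusted p = 0.334). Its close relative Abcb1b, with which it shares sequence, had log2 differences of 0.30 ± 0.15 in WT and 0.43 ± 0.15 in KO (adjusted p 0.237 and 0.0870, trimmed-mean test).

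Mfsd2a (gene at chr4:122946850-122961188, minus strand) was at 3.40, 3.52 and 3.70 log2 CPM in CL WT and 2.97, 3.25 and 3.35 in PI WT. In CL KO it was at 3.32, 3.45 and 3.66 and in PI KO at 3.20, 3.24 and 3.29. In neither genotype did the CL and PI values overlap, though in KO the gap was small. The log2 differences of -0.35 ± 0.16 in WT and -0.24 ± 0.14 in KO were not called (adjusted p 0.197 and 0.314, trimmed-mean test).

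Ly6c1 (chr15:75044018-75048830, minus strand) went the other way from the 3 transporters. It was at 3.30, 3.67 and 3.85 log2 CPM in CL WT and 3.73, 3.82 and 3.96 in PI WT, which overlap. In CL KO it was at 3.58, 3.70 and 3.76 and in PI KO at 3.84, 3.86 and 3.95, which do not. The log2 differences were 0.23 ± 0.17 and 0.20 ± 0.10, with adjusted p of 0.478 and 0.261 in the trimmed-mean test.

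**Figure D1:**
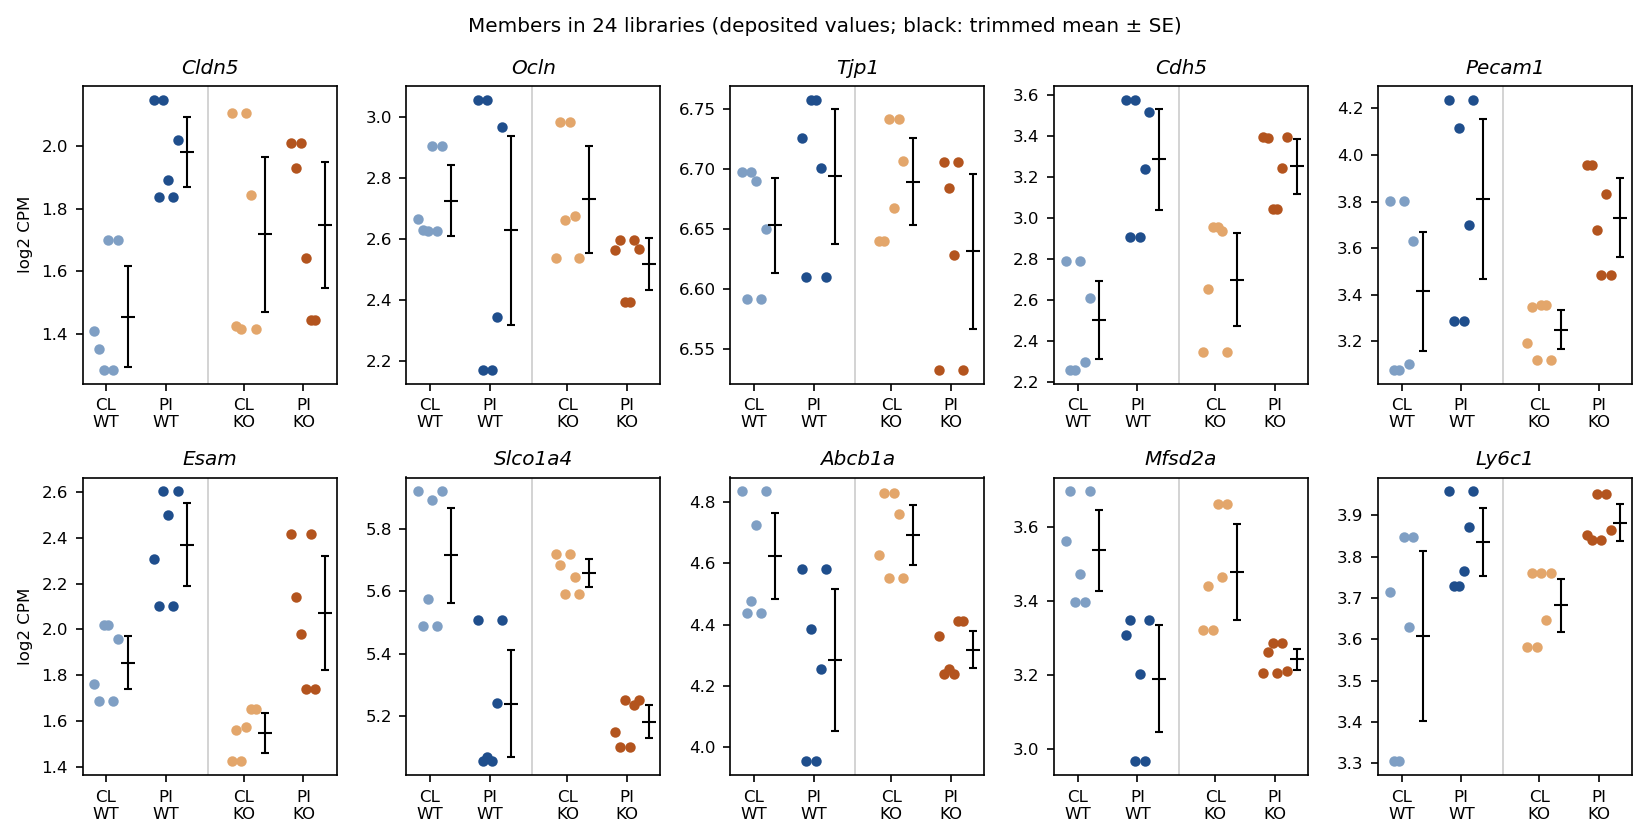
Deposited log2 CPM (vertical axes, a separate scale for each gene) of the 10 genes in 24 libraries, with 6 points per group and the trimmed mean ± SE in black beside them. The 2 lowest and the 2 highest points of each group are tied by the Winsorizing, and the PI KO points of Slco1a4 and Abcb1a lie below all CL KO points.

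Counted over the 10 genes, 0 were called between PI WT and CL WT, where 10.6% of 14489 genes were called (754 higher, 783 lower), and 5 had an unadjusted p under 0.05, where 23.9% of all genes did. limma on the deposited values, whose spread is too small, called 6 of them beside a large share of all genes. Its counts over all genes are given with the other alternatives at the end. Centring the groups on their median gene moved the higher share of all calls from 49.1% to 37.3% in WT and from 50.8% to 38.3% in KO. Between PI KO and CL KO 2 members were called, both lower, where 10% of 14338 genes were called and 4.94% were called lower, and 4 had an unadjusted p under 0.05 (24.9% of all genes). Groups did not overlap for 4 members in WT (32.8% of all genes) and for 7 in KO (34.3% of all genes). The junction genes had a median log2 difference of 0.46 in WT and 0.26 in KO, and the transport and surface genes of -0.34 and -0.30, beside 0.01 and -0.00068 for all genes. In bulk RNA, a change in the number of endothelial cells and a change in RNA per cell cannot be told apart.

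Because the labels give both sides of the same animals, the comparison was also fitted with the animal as a block, which the recovered values do not allow and which was therefore run with limma on the deposited values. With the block 7 members passed in WT (Cldn5, Cdh5, Esam and Ly6c1 higher, Slco1a4, Abcb1a and Mfsd2a lower), and 7 in KO (Cdh5, Pecam1, Esam and Ly6c1 higher, the same 3 transporters lower). Those fits take the Winsorized spread at face value, which is too small. The same fit called 6614 of 14489 genes in WT and 6759 of 14338 in KO.

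**Figure D2:**
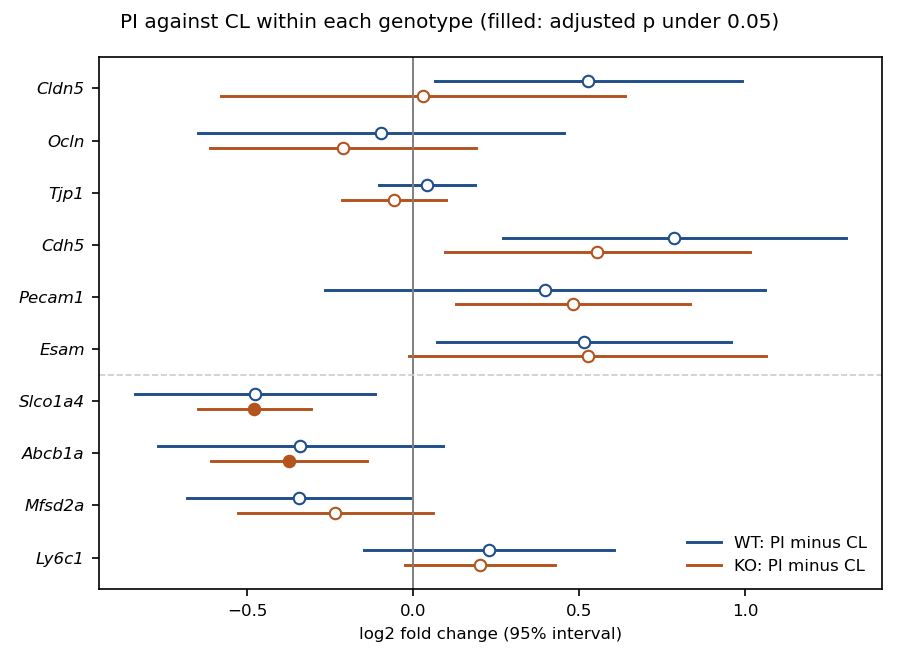
Log2 fold change of PI over CL with its 95% interval (horizontal axis) for each gene, WT in blue and KO in orange, with junction genes above the dashed line. Filled points passed an adjusted p of 0.05, which only Slco1a4 and Abcb1a did, in KO; Slco1a4 has nearly equal values in the genotypes, -0.48 in each.

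The 2 classes of members can also be set against each other within a library, a measure that library scaling does not touch. The mean log2 CPM of the 6 junction genes minus that of the 4 transport and surface genes ran from -1.33 through a median of -1.30 to -1.17 in CL WT and from -0.87 through -0.72 to -0.33 in PI WT. In KO libraries it ran from -1.43 through -1.24 up to -1.18 for CL and from -0.99 through -0.87 to -0.66 in PI. The Winsorizing replaces each gene's edge values and pulls every library towards its group, so the separation of the groups is partly built in, and directions within single animals are not known from it. The medians over animals of the PI minus CL difference were 0.59 in WT and 0.39 in KO. Of its components, the transport and surface mean had medians of 4.36 in CL WT, 4.06 in PI WT, 4.39 in CL KO and 4.16 in PI KO, and the junction mean of 3.09, 3.49, 3.08 and 3.34 in that order. These are descriptions of genes whose values were known when the classes were formed, and carry no test.

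**Figure D3:**
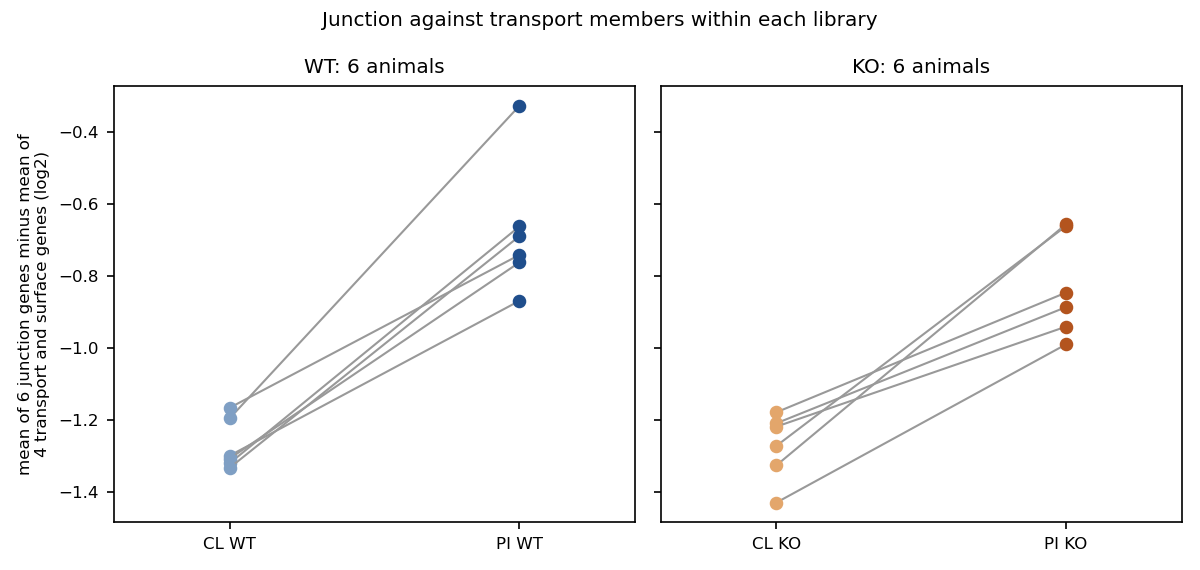
Mean log2 CPM of 6 junction genes minus mean of 4 transport and surface genes (vertical axis) in each library, with a line joining the CL and PI libraries of 1 animal, WT at left and KO at right. The values are built from Winsorized data, which narrows the groups; the group medians go from -1.30 to -0.72 in WT and from -1.24 to -0.87 in KO.

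Whether the loss of ciRS-7 moved these genes was asked within each side. None of the 10 was called between PI KO and PI WT or between CL KO and CL WT (0 of 10 in each by the trimmed-mean test, 0 with an unadjusted p under 0.05). Over all genes 0.0208% and 0.0279% were called, and 5.75% and 5.73% passed an unadjusted p of 0.05. When limma was run directly on deposited values, whose spread is too small, 0 members were called in PI and 1 in CL, Esam. The counts of that fit over all genes are given at the end.

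In PI, KO minus WT ran from -0.29 ± 0.26 for Esam to 0.06 ± 0.15 for Mfsd2a on the log2 scale. The 6 junction genes had values of -0.29 to -0.03 there, with intervals that all include 0, and 0 members were without overlap between the groups (14.1% of all genes). In CL it ran from -0.30 ± 0.20 for Esam to 0.27 ± 0.27 for Cldn5. Esam was at 1.65, 1.83 and 1.98 log2 CPM in CL WT and 1.40, 1.54 and 1.62 in CL KO, the only member without overlap in a genotype comparison, where 13.5% of all genes had none. Its adjusted p was 0.902 in the trimmed-mean test. The half-widths of the 95% intervals, unadjusted and for single genes, were 0.17 to 0.61 in PI and 0.13 to 0.58 in CL. Changes within those sizes were not detectable, and larger ones could also go uncalled after adjustment over all genes.

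The PI to CL differences of the genotypes were compared directly by an interaction term over 14211 genes, which uses the same libraries as the side comparisons. It called 0 of 10 members and 0.0% of all genes in the trimmed-mean test, with an unadjusted p under 0.05 for 0 members and 4.55% of all genes. For the same term limma on the deposited values also called 0 members, and its count over all genes is given at the end. The largest value was that of Cldn5, whose PI to CL difference was 0.53 in WT and 0.03 in KO: the interaction was -0.50 ± 0.36, with a 95% interval from -1.25 to 0.26. Slco1a4, called in KO and not in WT, had an interaction of -0.0020 ± 0.20 with an interval from -0.42 to 0.42. For Abcb1a it was -0.03 ± 0.25, with an interval from -0.55 to 0.48. The side differences of both transporters are thus not shown to differ between WT and KO animals.

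**Figure D4:**
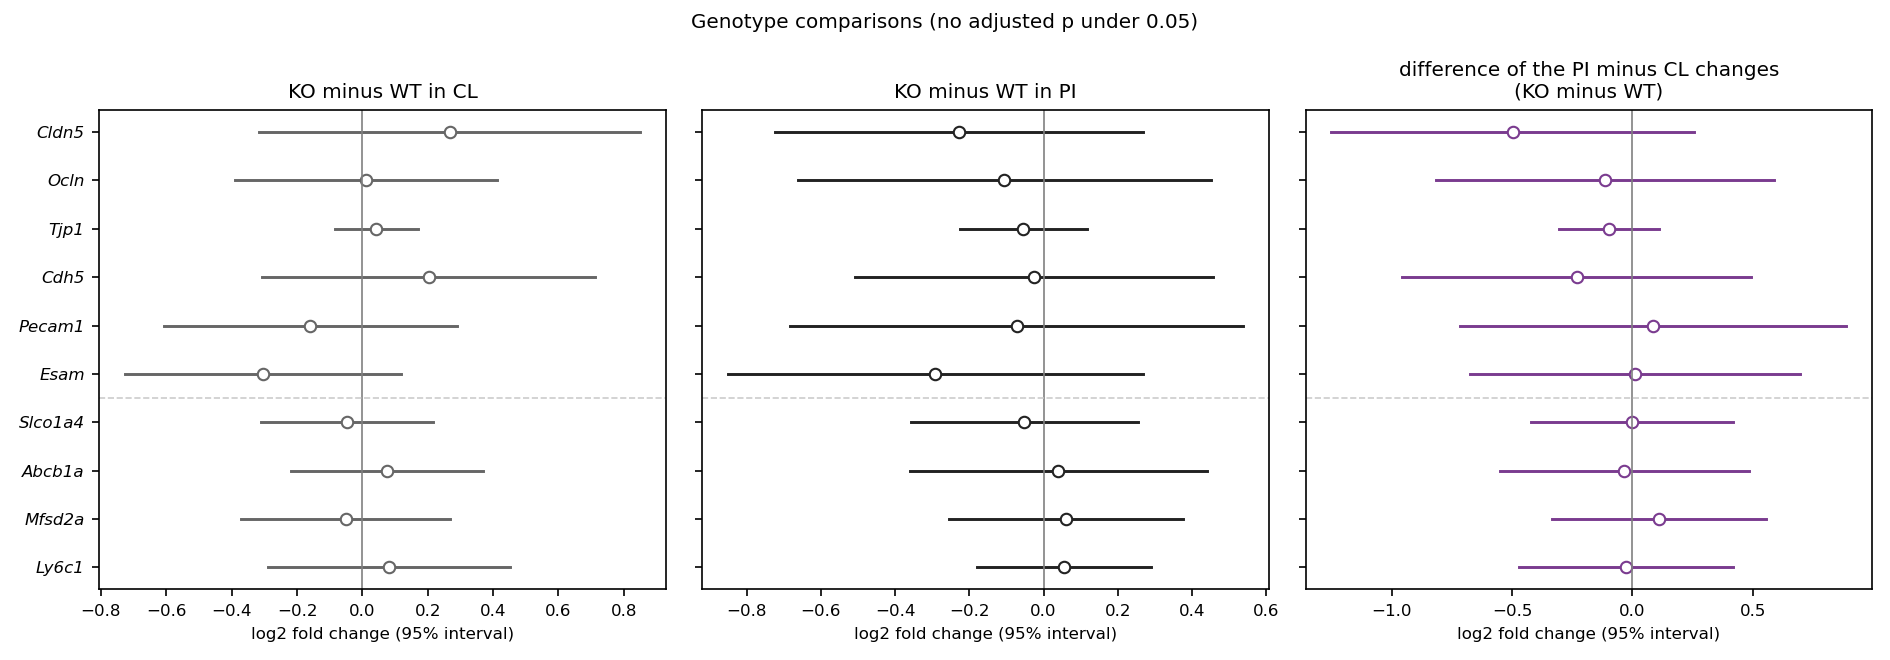
Log2 fold changes with 95% intervals (horizontal axes, separate scales) of KO over WT in CL, of KO over WT in PI, and of the interaction, for the 10 genes. Every interval includes 0; the interaction of Cldn5, -0.50, lies farthest from it.

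Other genes of the barrier were set beside the members. Over all genes 10.6% were called between the sides in WT and 10% in KO. The counts of called genes in these lists and in the cell type lists stand beside those shares. A count near them is not read as a result about a list. Among other junction genes, 2 of 20 rose and 1 fell in PI WT, and 1 of 21 rose in PI KO. Amotl1, an angiomotin family scaffold at junctions, rose in both genotypes, by 0.71 ± 0.10 in WT and 0.59 ± 0.09 in KO on the log2 scale. Jup, encoding plakoglobin, rose by 0.35 ± 0.09 in WT, and Cldn10, a claudin of epithelia, fell by 0.54 ± 0.14 there. The medians of this list were 0.02 and 0.09.

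Among transporters other than the members, most of the called genes were higher in PI. Of 29 listed in WT 5 rose and 0 fell, and of 28 in KO 4 rose and 1 fell, with medians of 0.03 and 0.14. The lactate transporter gene Slc16a1 rose by 0.61 ± 0.07 in WT and 0.58 ± 0.11 in KO. Slc3a2, the heavy chain of amino acid exchangers, rose by 0.55 ± 0.09 in KO.

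Endothelial identity genes moved in both directions, with 6 of 33 higher and 4 lower in WT and 3 of 32 higher and 3 lower in KO (medians 0.28 and -0.03). Hspb1, a small heat shock protein that other stressed cells also make, rose by 2.57 ± 0.31 in WT and 2.55 ± 0.41 in KO, from levels near 1 CPM in CL. Cd93, an endothelial adhesion receptor, rose by 1.42 ± 0.23 and 0.87 ± 0.26. The sialomucin gene Cd34 fell by 0.97 ± 0.11 and 0.84 ± 0.11, and Ly6e fell by 0.65 ± 0.08 and 0.67 ± 0.08. The summed level of the list in WT was 527 to 610 CPM on the CL side and 490 to 584 CPM on the PI side. In KO it was 574 to 634 CPM for CL libraries and 511 to 566 CPM for PI libraries. The sums of the sides thus overlapped in WT and not in KO, where the Winsorizing builds in part of the separation. Abundant genes weigh most in such a sum: Cd34 alone went from 6.60 log2 CPM in CL KO to 5.76 in PI KO, and the list median was near 0 there.

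Caveolar genes, which belong to the vesicle route that Mfsd2a restrains, were called higher for 2 of 11 and lower for 0 in each genotype, with medians of 0.23 and 0.26. Ehd4, an endocytic ATPase, rose by 0.57 ± 0.14 in WT and 0.64 ± 0.15 in KO. Cavin1, a coat protein of caveolae, rose by 0.74 ± 0.15 in WT, and Cav2 rose by 0.25 ± 0.07 in KO. Of the Wnt programme 2 of 19 rose and 0 fell in WT, and 2 of 18 rose and 1 fell in KO. Apcdd1, a Wnt target that encodes an inhibitor of the pathway, rose by 0.87 ± 0.26 and 0.77 ± 0.20, and Tspan12, a Norrin co-receptor, by 0.40 ± 0.09 and 0.48 ± 0.09. Axin2, a general Wnt target, fell by 0.41 ± 0.12 in KO.

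Genes of activated endothelium made up the list with the highest median, 1.10 in WT and 1.21 in KO, and 8 of 12 and 7 of 13 listed genes rose while 0 fell. Ch25h, an enzyme of oxysterol synthesis, rose by 2.63 ± 0.42 in WT, from under 1 CPM in CL WT. Osmr, the oncostatin M receptor, rose by 2.62 ± 0.20 in KO and Tnfrsf1a, a receptor for tumour necrosis factor, by 1.96 ± 0.21. These genes are not made by endothelium alone. The list summed to 62.5 to 72.9 CPM for CL and 112 to 146 CPM for PI libraries of WT animals, and to 66.1 to 71.0 and 114 to 163 CPM in the same order for KO animals. Over these 6 lists, the trimmed-mean test called 0 of 126 listed genes between KO and WT in PI, 0 of 118 in CL and 0 of 121 in the interaction. An unadjusted p under 0.05 was reached by 6, 11 and 5 of them, and by 5.75%, 5.73% and 4.55% of all genes. The overly liberal limma fit of the deposited values called 18, 24 and 17, and its counts over all genes are given at the end. Such counts leave out direction. For endothelial identity genes, KO minus WT on the CL side was positive for 27 and negative for 5 (median 0.18, all genes -0.0020). In PI it was positive for 15 and negative for 18 (median -0.01). Their interaction was positive for 8 and negative for 24 (median -0.23, all genes -0.00038). Other lists leaned on the CL side too. Fibroblast and meningeal genes were positive for 10 and negative for 1 (median 0.31), with an interaction positive for 2 and negative for 9. Microglial genes were positive for 8 and negative for 1 (median 0.13), and oligodendrocyte genes for 1 and 9 (median -0.13). Of the 10 members 6 were positive in CL (median 0.03). The genes of a list share their libraries, and a shift of any list was not tested.

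**Figure D5:**
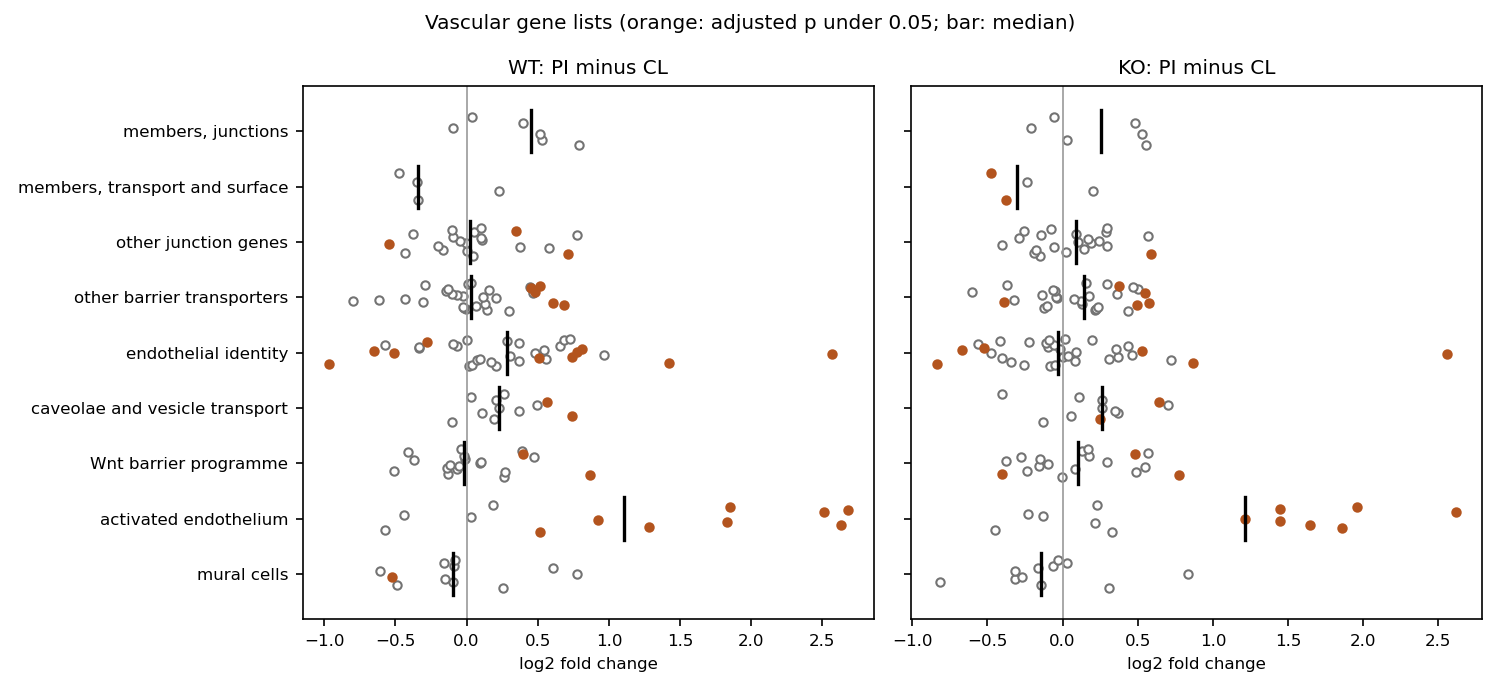
Log2 fold change of PI over CL (horizontal axes) for every listed gene of the members' 2 classes and 7 other vascular lists, WT at left and KO at right, with called genes in orange and a bar at the median. The activated endothelium list has its median at 1.10 and 1.21, and the junction members at 0.46 and 0.26.

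Markers of several other cell types differed between the sides as well. Of mural cell genes, 0 of 11 rose in either genotype and 1 fell in WT, Cspg4, by 0.53 ± 0.12, and the summed level overlapped between sides (CL WT 123 to 155 CPM, PI WT 120 to 138). Astrocyte markers summed to 7599 to 8003 CPM in CL WT and 6625 to 7028 in PI WT, with 1 of 9 higher, Aqp4, and 3 lower. Neuron markers summed to 9350 to 9939 CPM in CL WT and 8089 to 8921 in PI WT, with 5 of 13 lower and 0 higher. In KO the sums were 7626 to 8131 and 6417 to 7114 CPM for astrocytes, and 9243 to 9635 and 7910 to 8717 CPM for neurons, CL before PI. Of astrocyte markers 1 was called higher and 1 lower in KO, and of neuron markers 1 was higher, Gad2, and 4 were lower. Oligodendrocyte markers summed to 2192 to 2389 CPM for CL and 1539 to 2158 CPM for PI libraries of WT, with 1 of 10 lower, Cnp, by 0.41 ± 0.10, and to 1749 to 2373 and 1694 to 1914 CPM in KO, where 0 were called. Fibroblast and meningeal genes moved both ways, with 1 higher and 1 lower in each genotype. Dcn, encoding decorin, rose by 1.32 ± 0.18 in WT and 1.11 ± 0.21 in KO, and Igf2 fell by 0.76 ± 0.10 and 0.77 ± 0.17. The sums of that list overlapped between the sides, at 110 to 130 CPM (CL) and 121 to 136 CPM (PI) in WT. Microglial genes also moved both ways, with 2 of 9 higher and 3 lower in WT and 3 higher and 1 lower in KO, and their sums overlapped.

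Few blood cell genes were listed. Of 14 neutrophil and monocyte genes 1 was listed in each table of PI with CL, Itgam, which microglia also make and which rose by 1.08 ± 0.11 in WT and 0.95 ± 0.15 in KO. Ly6c2, the leukocyte relative of Ly6c1, was not listed there. Of 8 platelet genes 1 was listed, Gp1bb, which fell by 0.36 ± 0.09 in WT and was not called in KO. It stood at 5.48 log2 CPM in CL WT with no other platelet gene listed, and is not read as a measure of platelets. Red cell genes, of which 0 were called, summed to 12.3 to 52.1 CPM for CL and 30.0 to 50.4 CPM for PI libraries of WT animals, and to 10.8 to 61.8 and 35.4 to 51.4 CPM in that order for KO animals. The deposited sums of astrocyte and neuron markers did not overlap between the sides in either genotype, nor did that of oligodendrocytes in WT. Those of mural, fibroblast, microglial and red cell genes overlapped. The Winsorizing narrows such sums, so a lack of overlap is partly built in. Abundant genes weigh most in a sum: Slc1a2 was at 12.7 log2 CPM in CL WT (scaled with CL KO), and Aldh1l1, another astrocyte marker, at 4.76. Median log2 differences of the markers were -0.11 in both genotypes for astrocytes, and -0.18 in WT and -0.20 in KO for neurons. The part of any of these cell types in the members' differences was not tested.

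Within groups the members varied unequally between libraries, counting error included. The SD of the deposited values around the group means was 0.30 for Pecam1, the most variable, and 0.06 for Tjp1, the least. Counting error at the lowest group median was 0.17 and 0.056 in that order. Averaged over the members' deposited values, PI WT replicates 1 and 6 lay 0.21 above their group with 9 of 10 members higher, and PI WT replicate 2 lay 0.23 below with 9 lower. Such splits were not particular to PI WT. In CL WT replicates 4 and 6 and CL KO replicate 4, 9 members were also higher. In CL WT replicates 2 and 5 and PI KO replicate 4, 9 were lower. Among 13482 other genes, those whose profile over the 24 libraries was most like the members' mean, by root mean square difference of profiles scaled to an SD of 1, were Acvrl1 (0.303), Igfbp7 (0.377), Ptprb (0.427), Adgrf5 (0.429) and Col4a1 (0.474). Acvrl1 encodes an endothelial receptor of the BMP family and Ptprb a vascular phosphatase. By the same measure the members themselves lay between 0.28 (Pecam1) and 1.27 (Tjp1) from their mean, with Mfsd2a at 1.21. The mean is therefore not the profile of every member. These profiles share their libraries, depth and Winsorizing, and carry no test.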

How the data were processed

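Cortex total RNA went through ribosomal depletion (RiboCop) and CORALL library preparation, per the labels' protocols, and the 24 libraries were grouped by their titles. The authors deposited log2 CPM in 4 tables, 1 per pair of groups, per the file headers, each scaled on its own, so tests stay within a table. The build is mm10 per the submitters' processing notes. Aligner, counting, strand use and filters are not given in the sources used here. No column was left over (0 unused columns).

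In 100% of genes the 2 lowest and 2 highest values of a group of 6 were tied at 0.75 times the second lowest plus 0.25 times the third, and likewise at the top. No label records this step. The 4 inner values were solved from it. Their mean per group, with the Winsorized sum of squares and 6 degrees of freedom (12 for the interaction), went into limma 3.58.1 (R 4.3.3) variance moderation with a trend, two-sided, with Benjamini-Hochberg adjustment over the table. Intervals are 95%. The test was tried on simulated data. The deposited mean of 6 equals the mean of the 4, so limma on the deposited values, an alternative, gives the same fold changes with a spread that is too small. Python 3.11.15 made the tables.

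Depth was read from low values, 82.6% to 90.9% of which were whole reads within 0.03 read. The limit for 0 reads was 3 reads, 0.285 to 0.569 CPM. The 6 animals per group are separate animals by the labels, which also tie each CL library to the PI library of its animal. Deviations of the sides of 1 animal correlated between -0.14 and 0.33 in WT and -0.0093 and 0.17 in KO. Alternatives were limma on the deposited values, the animal as replicate block, no variance trend, centring, 1 CPM added and a filter of 1 log2 CPM. Leaving out CL KO replicate 6 was added after seeing the data.

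The 10 genes, the 15 other lists and the tests were chosen with earlier results of these data known. From each other list the up to 2 genes called in each direction with the largest change and no overlap were eligible to be named for PI against CL, and in a list without any the gene with the smallest p. A few genes that this rule names are not reported here. Abcb1b and Ly6c2 were named after their values were seen. For likeness, genes of at least 1 log2 CPM were ranked.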

Additional observations from a re-analysis of the deposited data

How the results depend on the processing

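The fold changes of the members kept their direction and side of the threshold in 263 of 300 results (the 10 genes under each alternative, of which the block covers 2 comparisons, the omission of CL KO replicate 6 covers 3 and the others all 5), while 32 newly passed, 1 no longer passed and 4 changed sign. The 4 are values near 0: Cldn5 in PI KO against CL KO was -0.0013 with groups centred on their median gene and -0.032 without CL KO replicate 6, the interaction of Esam was -0.0058 with 1 CPM added, and that of Slco1a4 was 0.0020 with centring. The 1 that no longer passed is Abcb1a in KO without a variance trend, which left 1 member called.

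limma on the deposited values, whose spread is too small by construction, called 6 members in WT, 7 in KO and 1 between CL KO and CL WT, and over all genes 6459 between the sides in WT, 6666 between the sides in KO, 2388 between genotypes in PI, 2311 between genotypes in CL, and 1940 for the interaction. With the animal as replicate block, possible only on those values, it called 7 and 7 members and 6614 and 6759 genes in WT and KO. Without CL KO replicate 6 it called 8 members and 6311 genes between PI KO and CL KO, 1 member and 1779 genes between CL KO and CL WT, and 1533 genes in the interaction. Without a variance trend the test called 1015 genes in WT and 739 in KO. With genes of at least 1 log2 CPM only, 1 member, Cdh5, was called in WT. The cause of these shifts was not tested beyond what the construction gives. Centring was applied per group, because tied values cannot be assigned to libraries. Depth limits Cldn5 and Esam most, with medians down to 20.2 and 22.1 reads.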

Other observations

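Some barrier genes that the report does not name had differences near the threshold, and were picked after their values were seen. Slco1c1, a thyroxine and organic anion transporter of brain capillaries related to Slco1a4, had log2 differences of PI from CL of -0.29 ± 0.09 in WT and -0.37 ± 0.12 in KO (adjusted p 0.0718 and 0.0805, trimmed-mean test). Jam2, a junctional adhesion molecule, had -0.38 ± 0.11 in WT animals (adjusted p = 0.050) and -0.15 ± 0.08 in KO animals (adjusted p = 0.293). S100a8, a neutrophil gene, was listed in the table of PI KO with PI WT but in neither table of PI with CL. Its KO minus WT difference there was 1.16 ± 0.46 on the log2 scale, at an adjusted p of 0.854 in the trimmed-mean test.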
